A study of Mus musculus with 6 samples.

Results

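The troponin complex was described here through the 8 genes that encode its subunits in the mouse, Tnnt1, Tnnt2, Tnnt3, Tnni1, Tnni2, Tnni3, Tnnc1 and Tnnc2. Each gene was placed by its transcription start site (TSS, the outermost annotated start in GENCODE vM21, build mm10) in one of the 500 kb bins into which the Hi-C matrices divide the genome. The 8 genes, of 21951 protein-coding genes on the deposited bins, fell into 5 of 5455 bins. Hi-C cross-links chromatin, ligates DNA ends that lie close together in the nucleus and counts the joined ends, and each deposited value is a correlation coefficient between the interaction profiles of 2 bins. A positive coefficient means that 2 bins met the same other regions more or less often than the genome-wide model gives, and a negative coefficient means that their profiles opposed each other.

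C2C12, a myoblast line grown from the injured thigh muscle of C3H mice, was harvested in 3 conditions with 2 biological replicates each, and the replicates of a condition were merged into 1 matrix before deposit. Myoblasts were proliferating cells plated at low density and harvested, still sub-confluent, after 72 h at day 0. Myotubes were plated at high density and harvested at day 3 in differentiation medium without cytosine arabinoside (AraC, a cytidine analogue that kills dividing cells), and the design text states that these cultures still held myoblasts. AraC-treated myotubes received 10 µg/mL AraC between day 3 and day 7 and were harvested at day 7 (given as after AraC), which largely depleted the myoblasts. Drug and time, and likewise plating density and differentiation, therefore changed together and cannot be told apart. All cells were of a single line at the same passage. The 2 replicates of a condition came from separate source vials seeded on separate days, a structure that the merged matrices no longer show. With 1 pooled matrix per condition no value carries a replicate error and no test between conditions was possible. The depth behind each matrix is not recorded in it. The matrices hold no transcript levels, so the cell states were not checked against marker genes.

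Troponin sits along the thin filament of striated muscle and makes contraction depend on calcium. Troponin C binds calcium, troponin I holds back the interaction of actin with myosin while calcium is low, and troponin T anchors the complex to tropomyosin. Each troponin T gene lies beside a troponin I gene in the genome, with slow skeletal, cardiac and fast skeletal forms, whereas the troponin C genes stand alone. Bins of the genome fall broadly into an A compartment, which is rich in genes and open chromatin, and a B compartment, which is poor in both.

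The pairs were close at the scale of a bin. Tnnt1 (slow skeletal troponin T) and Tnni3 (cardiac troponin I) had starts 7.85 kb apart on chromosome 7, in the bin chr7:4500001-5000000. Tnni1 (slow skeletal troponin I) and Tnnt2 (cardiac troponin T) had starts 56.9 kb apart in the bin chr1:135500001-136000000. Tnni2 and Tnnt3, the fast skeletal forms of troponin I and troponin T, had starts 57.0 kb apart in the bin chr7:142000001-142500000. The start of Tnnt3 lay 1.16 kb from the end of that bin, so that most of the gene body fell into the next bin. Tnnc1, the troponin C of slow and cardiac muscle, lay in chr14:31000001-31500000 and Tnnc2, that of fast muscle, in chr2:164500001-165000000.

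A value of a bin belongs to all its genes. The Tnnt1-Tnni3 bin held 29 protein-coding starts, the nearest to the troponin genes being those of Dnaaf3, Ppp1r12c and Syt5. The Tnni1-Tnnt2 bin held 7, among them Phlda3, Lad1 and Csrp1. The Tnni2-Tnnt3 bin held 24, with Syt8, Lsp1 and Ctsd nearest, the Tnnc1 bin 17, with Nisch, Sema3g and Stab1 nearest, and the Tnnc2 bin 29, with Snx21, Ube2c and Acot8 nearest. The median autosomal bin held 2. All 5 bins were GC-rich, from 46.5% in the Tnnc1 bin to 49.1% in the Tnni1-Tnnt2 bin, against a median of 41.7% over the 4727 autosomal bins with data in all conditions. They were poor in HindIII sites, at which the chromatin was cut, with 117 sites in the Tnnt1-Tnni3 bin and 132 to 142 in the others against a median of 162. The part of GC content and of HindIII sites in the values below was not tested.

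Sequences in front of RefSeq starts of the troponin genes are shown to set the pair that stood apart in the matrices, Tnnt1 and Tnni3, beside the other genes. RefSeq (build GRCm38.p6) had an entry for 6 of the 8 genes. The longest part of the 250 bases before the first listed start that no GENCODE exon overlapped is printed for each 5′ to 3′ on the strand of the gene, with E-boxes (CANNTG, the motif bound by MyoD and myogenin, which reads the same on both strands) and M-CAT motifs (CATTCC on either strand, bound by TEAD factors) in capitals. The positions were chr7:4516005-4516225 on the minus strand for Tnnt1, chr7:4522529-4522694 on the minus strand for Tnni3, chr1:135799171-135799401 on the plus strand for Tnni1, chr1:135836084-135836333 on the plus strand for Tnnt2, chr14:31208062-31208311 on the plus strand for Tnnc1 and chr2:164779742-164779867 on the minus strand for Tnnc2.
Tnnt1: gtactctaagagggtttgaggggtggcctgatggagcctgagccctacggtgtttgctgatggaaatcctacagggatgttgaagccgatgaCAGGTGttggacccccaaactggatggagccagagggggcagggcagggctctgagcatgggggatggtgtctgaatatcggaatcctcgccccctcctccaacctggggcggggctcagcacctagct
Tnni3: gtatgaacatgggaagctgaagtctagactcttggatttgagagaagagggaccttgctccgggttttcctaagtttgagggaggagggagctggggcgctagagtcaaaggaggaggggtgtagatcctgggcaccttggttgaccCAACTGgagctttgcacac
Tnni1: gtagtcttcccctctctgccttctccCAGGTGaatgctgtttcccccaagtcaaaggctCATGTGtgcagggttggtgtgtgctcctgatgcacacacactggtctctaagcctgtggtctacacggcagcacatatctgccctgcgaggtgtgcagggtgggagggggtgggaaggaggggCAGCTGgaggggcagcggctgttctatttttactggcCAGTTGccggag
Tnnt2: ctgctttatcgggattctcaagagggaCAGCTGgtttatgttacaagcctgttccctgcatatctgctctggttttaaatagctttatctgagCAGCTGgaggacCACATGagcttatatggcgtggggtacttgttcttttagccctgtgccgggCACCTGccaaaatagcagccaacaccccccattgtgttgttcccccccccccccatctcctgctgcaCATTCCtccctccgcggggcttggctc
Tnnc1: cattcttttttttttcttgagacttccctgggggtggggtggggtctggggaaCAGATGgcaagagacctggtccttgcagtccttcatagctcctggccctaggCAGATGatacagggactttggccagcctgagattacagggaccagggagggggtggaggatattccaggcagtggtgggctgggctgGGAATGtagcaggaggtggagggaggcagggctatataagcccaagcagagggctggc
Tnnc2: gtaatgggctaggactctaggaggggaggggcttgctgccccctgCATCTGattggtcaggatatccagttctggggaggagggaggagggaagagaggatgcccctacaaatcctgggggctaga

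The printed stretches of Tnnt1 and Tnni3 held 1 E-box each. Those of Tnni1 and Tnnt2 held 4 each, that of Tnnc1 held 2 and that of Tnnc2 held 1. The lengths differed, from 126 bases for Tnnc2 to 250 for Tnnt2 and Tnnc1. In the full 250 bases, Tnnc2 held 2 E-boxes, and the counts of the other genes were as in the printed stretches. Tnni1 and Tnnt2 each had a second RefSeq entry, whose 250 bases held 2 E-boxes for Tnni1 and 1 for Tnnt2. The contrast of these genes with Tnnt1 and Tnni3 thus depended on the entry. Over 32851 RefSeq promoters, 66.2% held an E-box within 250 bases before the start. The M-CAT motif stood in front of the first listed starts of Tnnt2 and Tnnc1 but not of the second start of Tnnt2. Of the promoters, 12.6% held one. These letters describe single promoters, which the 500 kb bins do not resolve. The RefSeq starts are not always the outermost GENCODE starts that placed the genes. For Tnnt1, Tnni1, Tnni3 and Tnnc2, the RefSeq start and the printed stretch lie inside the annotated gene, in the same bin.

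The compartment of a bin was read from its score on the first principal component (PC1) of the coefficients within its chromosome, with the sign set so that bins with many genes score above 0 (A) and the others below 0 (B). All 5 troponin bins lay above 0 in every condition. The share of all autosomal bins above 0 was 38.3%, 36.5% and 35.5% in myoblasts, myotubes and AraC-treated myotubes. Among the 627 autosomal bins with 10 or more protein-coding starts, it was 68.1%, 66.8% and 66.7% respectively. None of the 5 changed sign, whereas 7.32% of autosomal bins did so on the way from myoblasts to myotubes, 10.2% from myoblasts to the AraC-treated cultures and 5.12% from myotubes to those cultures. In these mixed cultures, a changed share of nuclei of one kind and a change within the nuclei cannot be told apart, here and in all comparisons that follow.

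The distance from 0 differed widely among the bins. PC1 was divided by its standard deviation (SD) over the bins of the same chromosome and condition, because the spread of the scores differed between the matrices. On this scale the Tnnc1 bin stood highest, at 2.70 in myoblasts, 2.81 in myotubes and 2.45 after AraC. The Tnni1-Tnnt2 bin followed at 2.24, 2.47 and 2.23. The Tnni2-Tnnt3 bin gave 1.24, 1.66 and 1.95, and the Tnnc2 bin 1.42, 1.48 and 1.59. The fast troponin I and T genes thus ranked below Tnnc2 in myoblasts and above it in both kinds of myotubes. The Tnnt1-Tnni3 bin was the lowest of the 5 throughout, at 0.58, 0.19 and 0.18. Its unscaled scores were 0.465, 0.279 and 0.212, and the other 4 bins ranged from 0.993 to 4.16.

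A rough measure of the noise within a matrix came from computing PC1 from every other partner bin. The 2 resulting values of scaled PC1 differed by 0.0240, 0.00923 and 0.0246 for the Tnnt1-Tnni3 bin in the 3 conditions, and by 0.414, 0.203 and 0.211 for the Tnnc1 bin. This gap was at most 0.172 for each of the other bins. Both values share the cells and libraries, so that the gap is no replicate error.

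**Figure D1:**
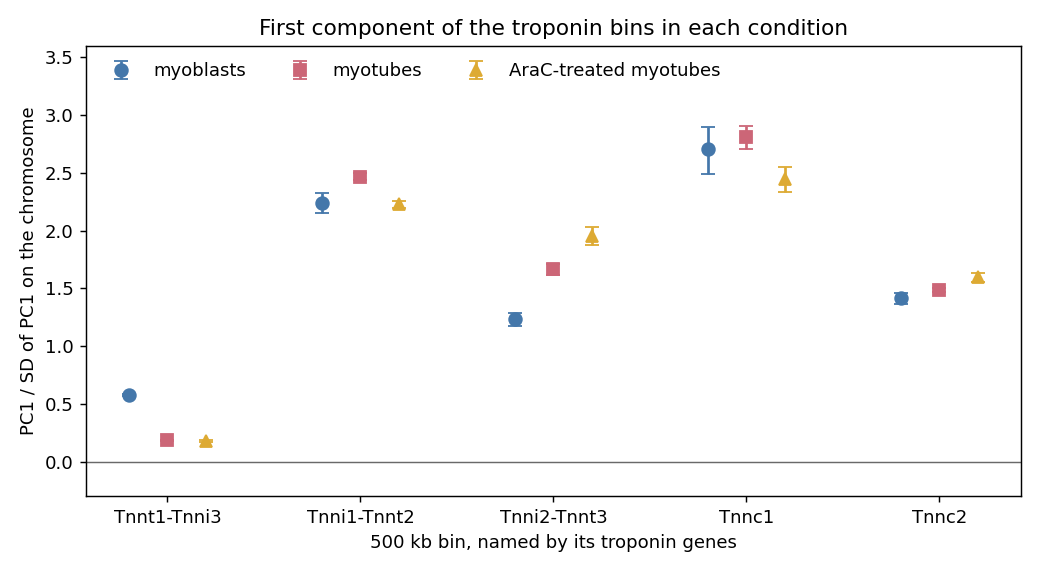
Scaled PC1 (PC1 divided by its SD on the chromosome) on the y axis for the 5 troponin bins on the x axis in myoblasts (circles), myotubes (squares) and AraC-treated myotubes (triangles), 1 pooled matrix each. Bars span the values computed from odd and from even partner bins. All points lie above 0, with the Tnnt1-Tnni3 bin lowest at 0.18 to 0.58 and the Tnnc1 bin highest at 2.45 to 2.81.

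The Tnni2-Tnnt3 bin had the largest positive difference in scaled PC1 of the 5 in each comparison. Myotubes exceeded myoblasts by 0.43, at the 94.7th percentile of the changes of all autosomal bins, and AraC-treated myotubes exceeded myoblasts by 0.72, at the 95.9th percentile. AraC-treated myotubes exceeded myotubes by 0.29, at the 93.7th percentile. These differences were larger than the gaps between odd and even partner bins of this locus, which were 0.112, 0.0930 and 0.155. The SD of the changes over all autosomal bins was 0.26, 0.36 and 0.19 in the same order.

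The Tnnt1-Tnni3 bin differed in the other direction. Its scaled PC1 in myotubes minus that in myoblasts was -0.39, at the 5.57th percentile, and in AraC-treated myotubes minus myoblasts it was -0.40, at the 9.95th percentile, with -0.01 between both kinds of myotubes. For the Tnnc1 bin, myotubes minus myoblasts gave 0.10 and AraC-treated myotubes minus myotubes gave -0.36, at the 2.34th percentile. The same differences were 0.23 and -0.24 for the Tnni1-Tnnt2 bin and 0.07 and 0.11 for the Tnnc2 bin. The 5 bins therefore did not share a direction.

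Counted by direction, 4 of 5 troponin bins had a higher scaled PC1 in myotubes than in myoblasts, where 48.7% of all autosomal bins did. Against myoblasts, 2 of 5 were higher in AraC-treated myotubes, with 46.7% of all bins. Against myotubes, 2 of 5 were higher in AraC-treated myotubes, with 47.3% of all bins. The first of these counts rested on the scaling, since 2 of 5 bins were higher in myotubes when PC1 was divided by its SD over all autosomes or computed from the other chromosomes.

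The bins around each locus put these scores in context. The Tnni2-Tnnt3 bin lay in a run of 6 neighbouring bins, from 0.5 Mb before to 2 Mb after it, that were lower in myoblasts than in both kinds of myotubes. The scaled PC1 of the first 4 in order was 1.12, 1.24, 0.75 and 0.53 in myoblasts. In myotubes it was 1.75, 1.66, 1.48 and 1.40. In AraC-treated myotubes it was 1.93, 1.95, 1.83 and 1.95. The third of these bins holds Igf2, an imprinted growth factor gene active in myogenic cells, and most of the body of Tnnt3. Its coefficient with the Tnni2-Tnnt3 bin was 0.0832 in myoblasts, 0.355 in myotubes and 0.337 after AraC. The last 2 bins of the run differed less, at 1.82, 2.15 and 2.33 and at 1.85, 1.96 and 2.23 in the 3 conditions. The bin 1 Mb before the locus, outside the run, gave 1.94, 1.99 and 1.69.

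The Tnni1-Tnnt2 bin lay at the end of a long A stretch. The 3 bins before it had scaled PC1 values between 2.42 and 2.57 in all conditions. The next bin, with Cacna1s (the voltage sensor of excitation-contraction coupling), gave 1.24 in myoblasts, 1.76 in myotubes and 1.70 after AraC. At 1 Mb beyond the locus the score was -0.63, 0.10 and 0.57, and at 1.5 Mb it was -0.90, -0.33 and 0.23. The stretch above 0 thus reached farther past Tnnt2 in both kinds of myotubes than in myoblasts, while the troponin bin itself changed less. In myotubes this rested on 1 bin near the border, at 0.10.

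The Tnnc1 bin was the top of a narrow A island. Its neighbours at 0.5 Mb gave 1.55, 1.80 and 1.11 before it and 2.68, 2.55 and 2.28 after it in the 3 conditions. At 1 Mb before it, the scores were -0.76, -0.82 and -1.02. Within 2 to 4 bins of the Tnnc1 bin, the mean coefficient was -0.0200, -0.127 and -0.0902, the only 1 of the 5 loci with a negative mean there, against medians of 0.0382, 0.0643 and 0.0570 for chromosome 14 at this distance. The Tnnc2 bin lay in a broader stretch, with 7 of the 10 bins within 2.5 Mb above 0 in every condition. The bin 0.5 Mb before it gave 0.96, 1.27 and 1.49 and the bin 0.5 Mb after it 1.49, 1.35 and 1.53. The stretch began between 1.5 and 1 Mb before Tnnc2, where the scores went from -0.49 to 0.56 in myoblasts, from -0.01 to 1.14 in myotubes and from -0.06 to 1.26 after AraC.

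The Tnnt1-Tnni3 bin, the bin with most starts together with that of Tnnc2, stood little above its surroundings. It lies 4.5 Mb from the start of chromosome 7, the centromeric end, and the first bin with data begins at 3 Mb. The adjacent bins had scaled PC1 values of 0.15 and 0.19 in myoblasts, -0.23 and -0.13 in myotubes, and -0.05 and -0.14 in AraC-treated myotubes. Of the 8 bins with data within 2.5 Mb, 3 lay above 0 in myoblasts and 1 in each kind of myotubes. Without centring of the columns, PC1 of this bin turned below 0, from 0.167 in myoblasts to -0.234 in myotubes and -0.222 after AraC. Its place in A is therefore a call near the border in the latter conditions.

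**Figure D2:**
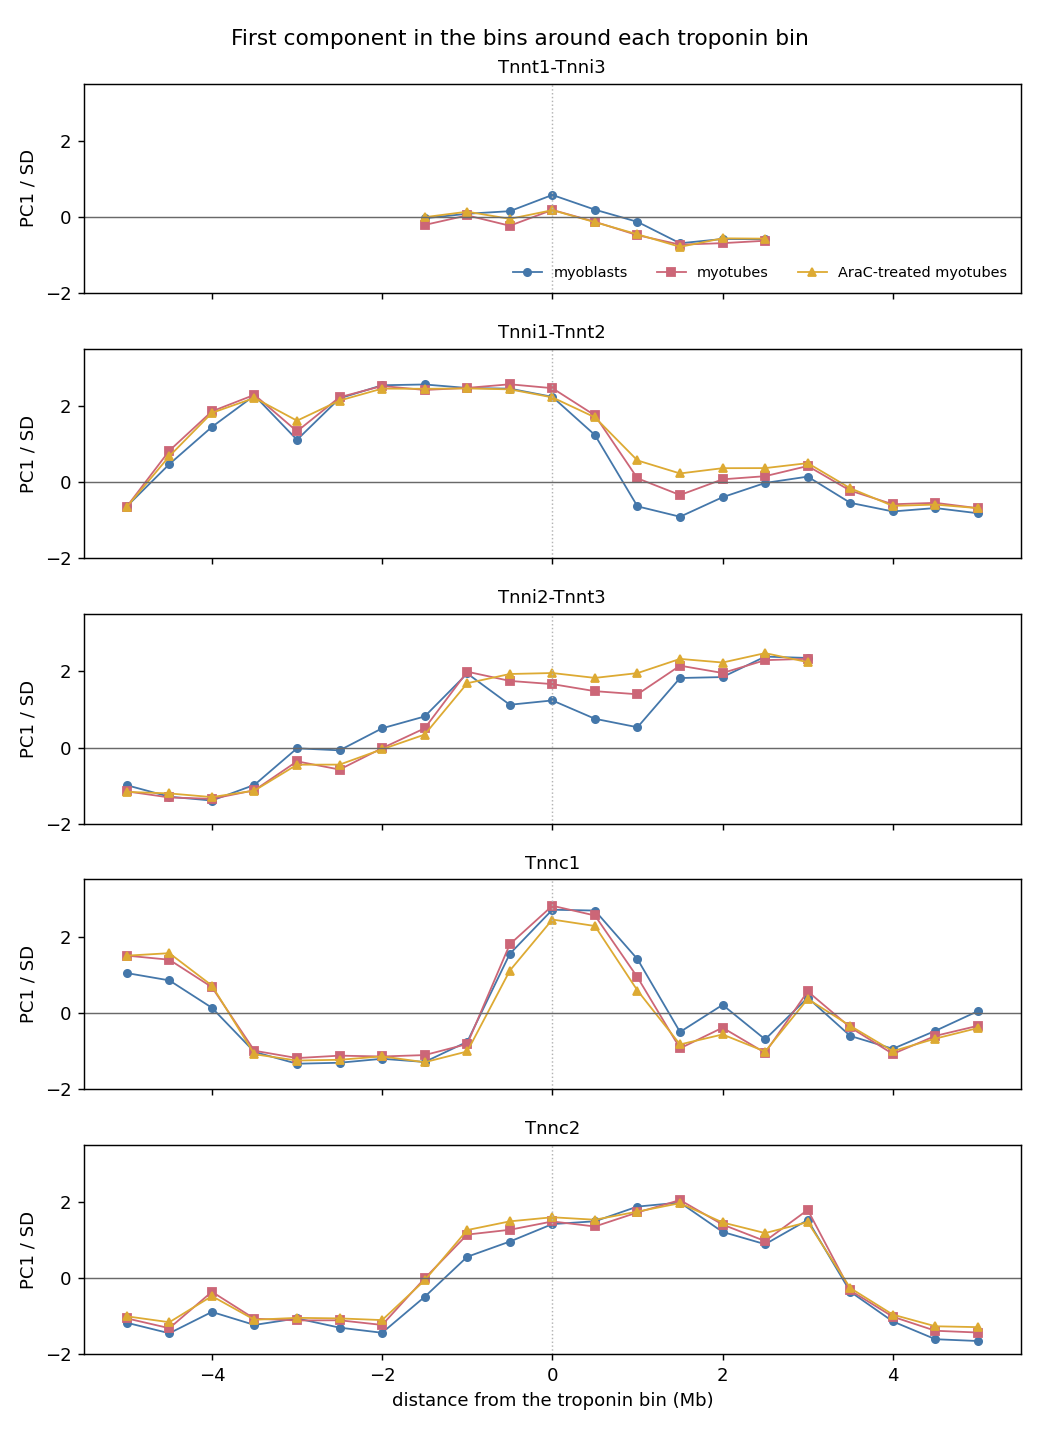
Scaled PC1 on the y axis for the bins within 5 Mb of each troponin bin (dotted line), by distance in Mb, in the 3 conditions. Bins without data are left blank. The Tnni2-Tnnt3 bin sits in a dip of the myoblast line that is shallower in both kinds of myotubes, Tnnc1 tops a narrow peak, and the Tnnt1-Tnni3 bin lies near 0.

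Coefficients with directly adjacent bins were lowest for the Tnnt1-Tnni3 bin in every condition. Their mean was 0.185, 0.400 and 0.291 for Tnni1-Tnnt2 in myoblasts, myotubes and AraC-treated myotubes, against a chromosome 1 median of 0.0590, 0.0921 and 0.0725. For Tnnt1-Tnni3 it was 0.0873, 0.0665 and 0.0547, against 0.0614, 0.0935 and 0.0778 on chromosome 7. The Tnnt1-Tnni3 bin was thus below the median of its chromosome in both kinds of myotubes. For Tnni2-Tnnt3 the mean was 0.105, 0.351 and 0.314, for Tnnc1 0.196, 0.303 and 0.157, and for Tnnc2 0.189, 0.317 and 0.298, all above the medians of their chromosomes.

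The 5 bins form 9 pairs on different chromosomes (trans) and 1 pair on chromosome 7, whose bins lie 137500 kb apart. In myoblasts the 9 trans coefficients had a mean of 0.104 (SD over pairs 0.0702), in myotubes 0.191 (SD 0.153) and in AraC-treated myotubes 0.150 (SD 0.125). They were above 0 for 9, 6 and 7 of 9 pairs, where 57.1%, 58.4% and 56.1% of all trans pairs of autosomal bins were. The pairs share bins and are not independent of each other.

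These means hid a division. The 6 trans pairs among Tnni1-Tnnt2, Tnni2-Tnnt3, Tnnc1 and Tnnc2 had coefficients of 0.0673 to 0.188 in myoblasts, 0.256 to 0.387 in myotubes and 0.189 to 0.310 after AraC. Their lowest coefficient stood at the 95.3rd, 98.6th and 98.2nd percentile of all trans pairs. The 3 trans pairs of Tnnt1-Tnni3 gave 0.0048 to 0.0646 in myoblasts, -0.0141 to -9.75e-05 in myotubes and -0.0200 to 0.0028 after AraC. Among all trans pairs they stood at the 48.8th to 94.9th, 35.3rd to 41.6th and 33.8th to 45.5th percentile. The ranges of both sets did not overlap in any condition, but in myoblasts they came close, at 0.0646 and 0.0673. The Tnnt1-Tnni3 bin was set apart for its low values in these same matrices, so the separation is no independent result. Within the rows of Tnni1-Tnnt2, Tnnc1 and Tnnc2, it still stood at the 64.2nd to 77.7th percentile of bins of other chromosomes. In its own row, these 3 bins stood at the 12.3rd to 96.6th percentile. The highest of the Tnnt1-Tnni3 values was that with Tnnc1 in myoblasts, and the same pair gave -0.0055 in myotubes. Between the Tnnt1-Tnni3 and Tnni2-Tnnt3 bins on chromosome 7 the coefficient was -0.0189, -0.0263 and -0.0179, where pairs of this chromosome at least 100 Mb apart had medians of -0.0039, 0.0263 and 0.0213.

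**Figure D3:**
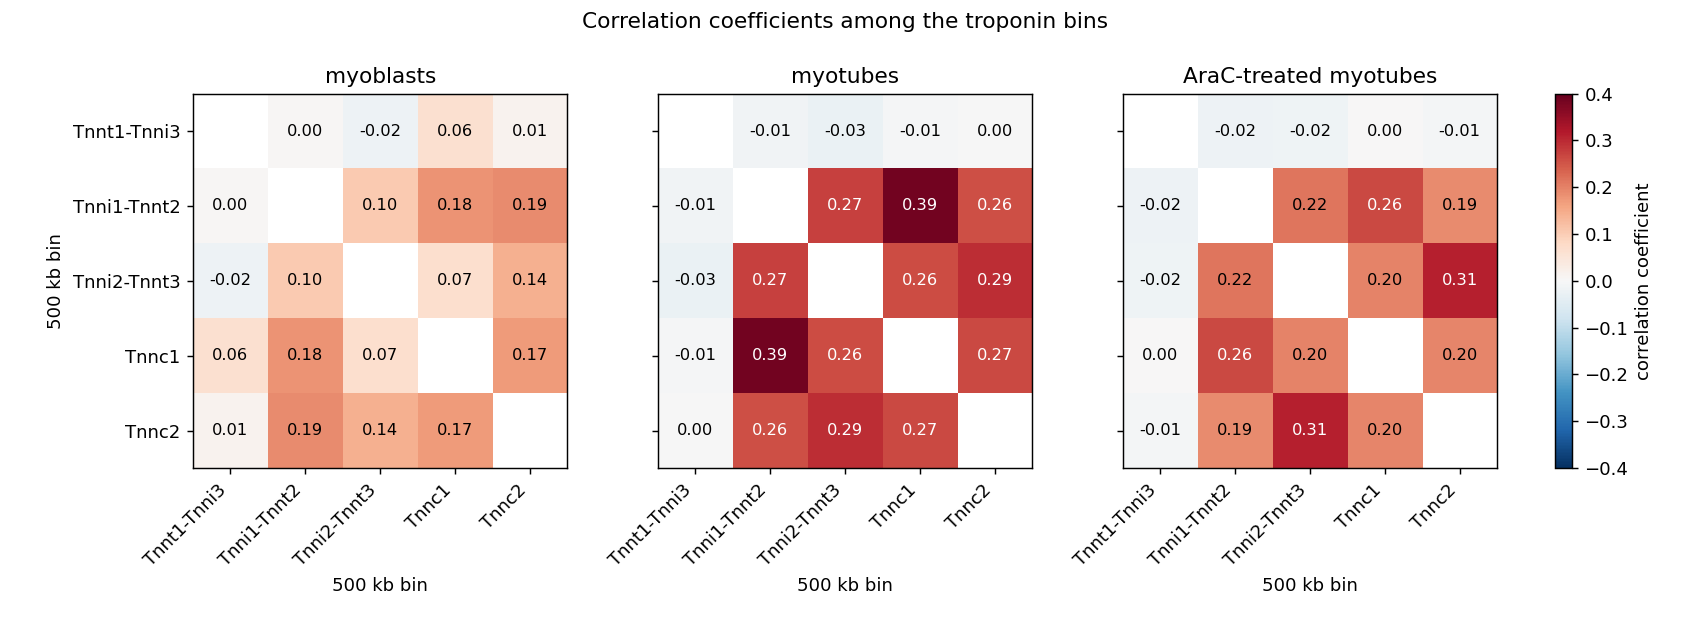
Correlation coefficients (colour and number) between the 5 troponin bins on both axes in the 3 pooled matrices. The diagonal is left blank. The row of Tnnt1-Tnni3 stays within -0.03 to 0.06, while all trans pairs among the other 4 bins are positive.

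Bins of the A compartment correlate with each other in general, and the 6 pairs were also set against that. The trans pairs of bins with PC1 above 0 in all conditions had a median of 0.0483 in myoblasts, 0.0800 in myotubes and 0.0690 after AraC. Among these pairs, the strongest troponin pair in myotubes, Tnni1-Tnnt2 with Tnnc1 at 0.387, stood at the 95.9th percentile. The strongest in AraC-treated myotubes, Tnni2-Tnnt3 with Tnnc2 at 0.310, stood at the 95.7th. The strongest in myoblasts, Tnni1-Tnnt2 with Tnnc2 at 0.188, stood at the 92.6th. The weakest of the 6 in myoblasts, Tnni2-Tnnt3 with Tnnc1 at 0.0673, stood at the 62.0th. In both kinds of myotubes the weakest was Tnni1-Tnnt2 with Tnnc2, at the 86.0th in myotubes and the 82.2nd after AraC. The coefficients with Tnnc2 ranked high in the row of the Tnni2-Tnnt3 bin, at rank 33 of 4462 bins of other chromosomes in myoblasts, 229 in myotubes and 130 after AraC. In the row of the Tnnc2 bin the same pair ranked 372, 171 and 32 of 4375, so that its place across the conditions depended on the row. It held the best single ranks of the 6 pairs, 33 and 32. The other pairs among the 6 ranked between 163 and 980 over all rows and conditions, so most were not leading partners of each other. The 3 fast-muscle genes Tnni2, Tnnt3 and Tnnc2 lie in the Tnni2-Tnnt3 and Tnnc2 bins, which together hold 53 protein-coding starts.

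All 6 of these coefficients were higher in myotubes than in myoblasts, but so was the spread of the whole matrix. The SD over all trans pairs was 0.0446 in myoblasts, 0.0890 in myotubes and 0.0732 after AraC. Divided by it, the mean of the 6 pairs was 3.17, 3.25 and 3.13, nearly level across the conditions. On this scale, 4 of the 9 trans pairs were higher in myotubes than in myoblasts (49.3% of all trans pairs), 3 of 9 in AraC-treated myotubes than in myoblasts (46.7%) and 2 of 9 in AraC-treated myotubes than in myotubes (44.4%). None of these shares was above that of all pairs. Among trans pairs of bins with PC1 above 0 in all conditions, 39.5%, 40.7% and 48.6% were higher in the same order. The first count, 4 of 9, was somewhat above that share, and the others were below it.

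The 3 trans pairs of the Tnni2-Tnnt3 bin with the other correlated loci were those higher than in myoblasts in both kinds of myotubes. Its coefficient over the SD was 2.34, 3.06 and 2.94 with Tnni1-Tnnt2 in the 3 conditions, 1.51, 2.94 and 2.71 with Tnnc1, and 3.16, 3.31 and 4.23 with Tnnc2. The pair of Tnni1-Tnnt2 with Tnnc1 gave 4.05, 4.34 and 3.61. The pairs of the Tnnc2 bin with Tnni1-Tnnt2 and with Tnnc1 were lower than in myoblasts on the same scale, at 4.20, 2.88 and 2.59, and at 3.79, 2.98 and 2.67. The bin with the largest positive difference in scaled PC1, which comes from the same matrices, was thus also the one with higher scaled trans coefficients.

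The same division was seen over whole rows of the same matrices, which also hold these pairs. Bins of other chromosomes were called A or B where PC1 kept its sign in all conditions, and the mean coefficient of each locus with both sets was compared. For Tnni1-Tnnt2 the mean with A bins minus that with B bins was 0.161 in myoblasts, 0.356 in myotubes and 0.267 after AraC. For Tnnc1 it was 0.186, 0.356 and 0.241, for Tnnc2 0.134, 0.239 and 0.211, and for Tnni2-Tnnt3 0.0792, 0.244 and 0.234. Over the SD of all trans pairs, these differences were 3.61, 4.00 and 3.64 for Tnni1-Tnnt2, 4.16, 4.00 and 3.29 for Tnnc1, 3.01, 2.69 and 2.89 for Tnnc2, and 1.78, 2.75 and 3.20 for Tnni2-Tnnt3. On that scale the Tnni2-Tnnt3 value was higher in both kinds of myotubes, while those of Tnnc1 and Tnnc2 were lower than in myoblasts. For Tnnt1-Tnni3 the unscaled difference was 0.0234 in myoblasts, -0.0158 in myotubes and -0.0244 after AraC, or 0.53, -0.18 and -0.33 over the SD. The first component computed from other chromosomes, over its SD on the chromosome, stayed above 0 for this bin, at 0.479, 0.0943 and 0.0258. These measures of its partners on other chromosomes thus differed in sign in both kinds of myotubes. The spread of its trans coefficients was small, at the 41.1st, 7.99th and 6.74th percentile of all autosomal bins, while the other 4 bins lay at the 79.7th percentile or above.

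**Figure D4:**
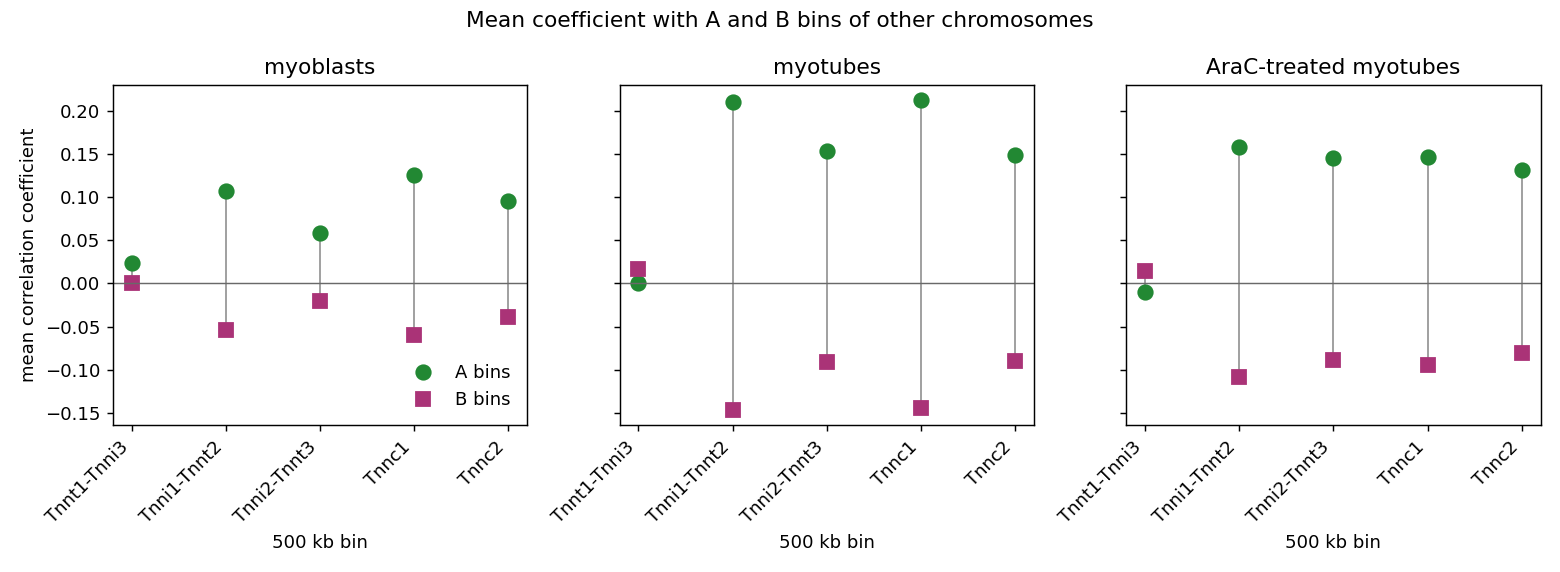
Mean correlation coefficient (y axis) of each troponin bin (x axis) with A bins (circles) and B bins (squares) of other chromosomes in the 3 pooled matrices. The sets lie 0.0792 to 0.356 apart (unscaled) for 4 loci, and for Tnnt1-Tnni3 they nearly meet and change places after myoblasts.

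How far each locus kept its profile was measured by correlating its coefficients with the other bins of its chromosome between conditions, over 1 matrix per condition. Between myoblasts and myotubes this gave 0.966 for Tnni1-Tnnt2, 0.961 for Tnnc2, 0.945 for Tnnc1 and 0.897 for Tnni2-Tnnt3, beside a median of 0.877 over all autosomal bins. It gave 0.444 for Tnnt1-Tnni3, at percentile 12.1 of all bins. Between myoblasts and AraC-treated myotubes the Tnnt1-Tnni3 value was 0.246 and the others ranged from 0.892 to 0.950, with a median over all bins of 0.839. Between myotubes and AraC-treated myotubes it was 0.586 against 0.972 to 0.985, with a median of 0.947. Bins with 10 or more starts had medians of 0.924, 0.890 and 0.966 in the 3 comparisons. The Tnni2-Tnnt3 value was below the first of these and close to the second, at 0.892. None of the 5 profiles was below 0, which 3.26%, 5.8% and 1.16% of all bins were in the order given. A row with coefficients near 0 carries little signal for such a correlation, and its part in the low values of Tnnt1-Tnni3 was not tested.

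The bins most like each locus were found as those of other autosomes with the highest mean coefficient over the 3 conditions. For Tnni1-Tnnt2 the first was chr15:99500001-100000000, with the aquaporin genes Aqp2, Aqp5 and Aqp6, at 0.272 in myoblasts, 0.519 in myotubes and 0.382 after AraC. The next were chr15:81000001-81500000, with Mrtfa, a coactivator of serum response factor, and chr8:122000001-122500000. For Tnni2-Tnnt3 the first was chr8:121000001-121500000, with the forkhead genes Foxf1, Foxc2 and Foxl1, at 0.154, 0.427 and 0.378. It was followed by chr15:78500001-79000000, which was also the first partner of Tnnc2, at 0.231, 0.385 and 0.356 there. The 2 fast-muscle loci therefore had 1 of their 3 leading partners in common. Over all 4 loci without Tnnt1-Tnni3, the highest means were those of chr8:122000001-122500000 at 0.334 and chr10:80500001-81000000 at 0.333. A shared partner was thus not shown to be particular to the fast-muscle loci.

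For Tnnc1 the leading partners were the neighbouring bins chr10:80500001-81000000, at 0.346, 0.505 and 0.339, and chr10:80000001-80500000. The third was chr19:4500001-5000000, which holds Actn3, the alpha-actinin of fast fibres. Over all 5 loci, on chromosomes without a troponin gene, the highest means were those of chr10:80500001-81000000 at 0.269, chr19:6000001-6500000 at 0.267 and chr15:76000001-76500000 at 0.267. These 3 bins held 25 to 29 protein-coding starts each. The partners of Tnnt1-Tnni3 were others and weaker. The first was chr17:3000001-3500000, with Scaf8 and Tiam2, at 0.108, 0.0926 and 0.0554, followed by chr19:10500001-11000000 and chr8:3000001-3500000, with the insulin receptor gene Insr.

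The other genes of the sarcomere were taken as a list of 44, in 39 bins, with 12 thin-filament, 20 thick-filament and 12 Z-disc genes. The bins of this list had PC1 above 0 for 25 of 39 in myoblasts and 27 of 39 in each kind of myotubes, beside the 38.3%, 36.5% and 35.5% of all autosomal bins and the 68.1%, 66.8% and 66.7% of gene-dense bins given above. Their median coefficient with the Tnni1-Tnnt2, Tnni2-Tnnt3, Tnnc1 and Tnnc2 bins was 0.0623 to 0.117 in myoblasts, 0.145 to 0.197 in myotubes and 0.105 to 0.145 after AraC, counting only bins on other chromosomes. Over all autosomal bins the same 4 loci had medians below 0. Bins with 10 or more starts gave medians of 0.0539 to 0.0911, 0.118 to 0.171 and 0.115 to 0.129, so that the list stood close to gene-dense bins. With Tnnt1-Tnni3, the median of the list was 0.0235, 0.0002 and -0.0039. All autosomal bins gave 0.0086, 0.0119 and 0.0077 there, and bins with 10 or more starts 0.0205, 0.0042 and -0.0020. The list thus stood close to gene-dense bins for this locus too.

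High and low means over the 4 loci, counting only loci on other chromosomes, were found in each of the 3 groups of the list. Averaged over the 3 conditions, the highest was that of Actn3, at 0.224 in myoblasts, 0.412 in myotubes and 0.334 after AraC. The bins of Myl2 (a myosin regulatory light chain), Myom3 (an M-band protein) and Acta1 (skeletal actin) followed, at 0.389 to 0.407 in myotubes. Nebl, a thin-filament gene, and Mybpc1, a myosin-binding protein gene, were near the other end, at -0.123 and -0.124 in myotubes. The lowest average was that of Actn2, which encodes the other sarcomeric alpha-actinin, at -0.0407, -0.130 and -0.107. In myoblasts alone, Mylpf (a fast myosin light chain) was highest at 0.247 and the cluster of skeletal myosin heavy chains lowest. The Mylpf mean covered 3 of the 4 loci, since Tnni2-Tnnt3 lies on the same chromosome. Myom3, over all 4, gave 0.245. The Ttn bin, with the gene of the giant spring protein titin, went from -0.0067 in myoblasts to 0.194 in myotubes and 0.153 after AraC. The bin of the Myh1, Myh2, Myh3, Myh4 and Myh8 cluster of skeletal myosin heavy chains stayed below 0, at -0.0926, -0.0855 and -0.0270. The bin of Neb, the thin-filament ruler protein nebulin, gave -0.0180, 0.0260 and 0.0455.

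**Figure D5:**
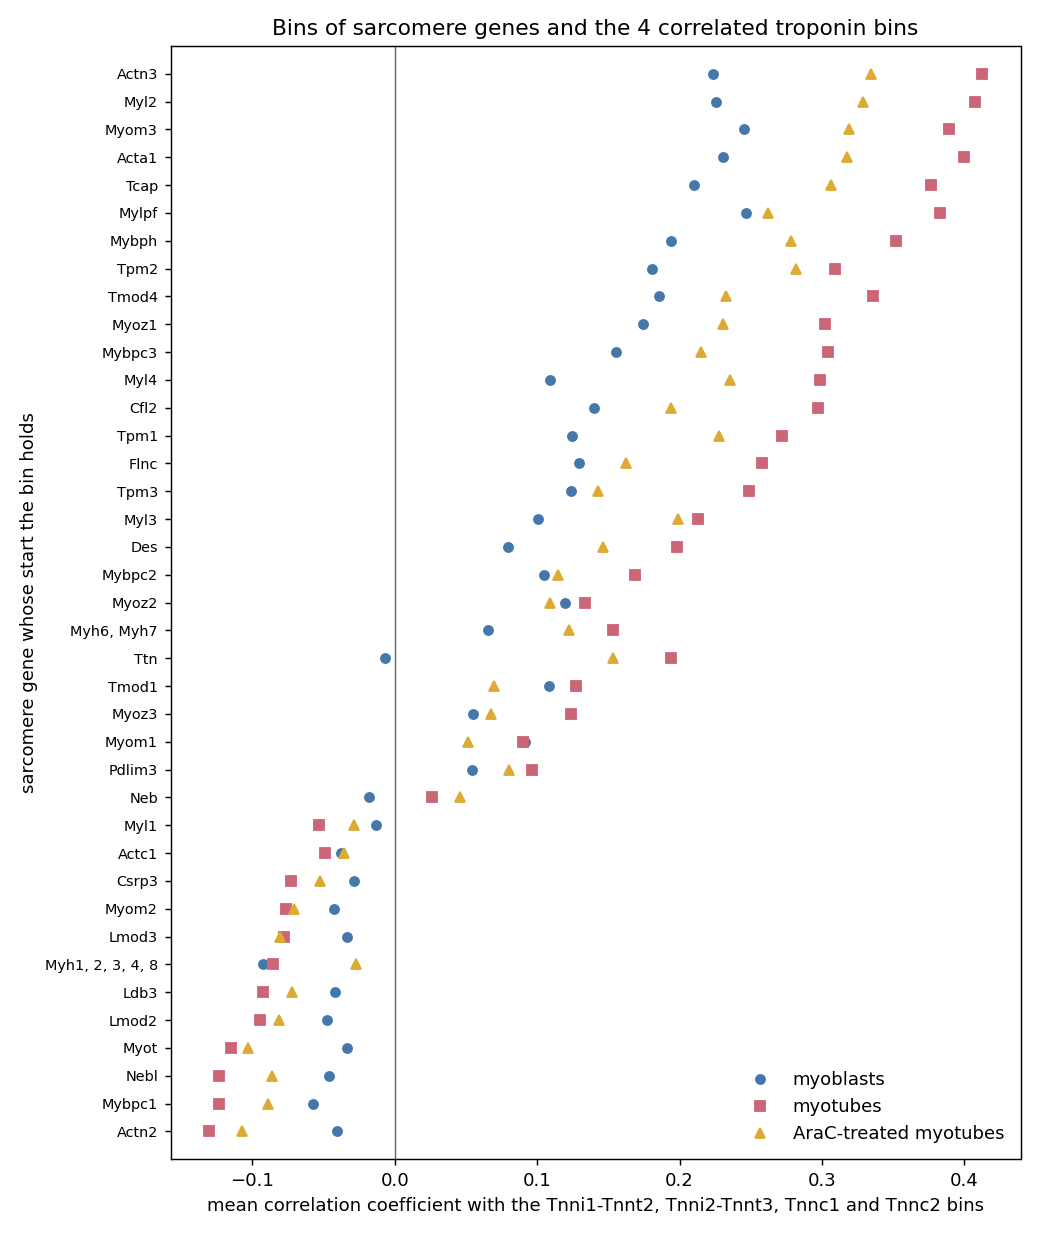
Mean correlation coefficient (x axis) of each sarcomere gene's bin (y axis, sorted by the mean over conditions) with the Tnni1-Tnnt2, Tnni2-Tnnt3, Tnnc1 and Tnnc2 bins that lie on other chromosomes, in the 3 conditions. By the mean over conditions Actn3 is highest, at 0.224, 0.412 and 0.334, and Actn2 lowest, at -0.0407, -0.130 and -0.107. Ttn lies below 0 in myoblasts and above 0 in both kinds of myotubes.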

How the data were processed

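Hi-C libraries of C2C12 cells were mapped by the authors with Bowtie in HiCUP, filtered for artefacts and turned into 500 kb correlation matrices with HOMER (build mm10), with the 2 replicates of a condition combined. Each deposited value is a score, the correlation coefficient of 2 normalized interaction profiles, with pairs lacking data written as 0. The last bin of all 19 autosomes held the last known base of the mm10 reference.

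PC1 was computed per autosome from the centred within-chromosome coefficients (Python 3.11.15, NumPy 2.4.6), signed by protein-coding starts (GENCODE vM21) per bin and divided by its SD on the chromosome. Backgrounds covered the 4727 autosomal bins with data in all conditions. The step was tested on simulated matrices. With 1 pooled matrix per condition, differences are values without tests. The members and lists were chosen with earlier results of these data known.

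Named were all 8 genes, their nearest neighbours, Igf2, Cacna1s and Csrp1, the 3 leading partner bins per locus and the sarcomere genes with the highest and lowest coefficients. Ttn, Neb and the Myh cluster were added once their values were known. Alternative settings covered the scaling and centring of PC1, a component from other chromosomes, odd and even partner bins, shifted bins, the middle of the gene in place of its start, and other partner sets.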

Additional observations from a re-analysis of the deposited data

How the results depend on the processing

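Of 147 alternative values over 21 results, 139 were labelled the same, 8 moved and 0 reversed. Same meant a count within 1.5 times, a mean or median within 1 SD over the members, or a percentile above the median. These limits were wide. They held a fall in the mean trans coefficient in myoblasts from 0.104 to 0.0570, with each bin shifted by 1 to the higher coordinate. They also held 4 in place of 5 bins with PC1 above 0 in both kinds of myotubes without centring of the columns. The count of troponin bins with a higher scaled PC1 in myotubes than in myoblasts fell from 4 to 2 of 5 with the SD taken over all autosomes, with the component from other chromosomes and with each bin shifted by 1 to the higher coordinate. Without division by the SD, 4 of 5 bins in place of 2 were higher in AraC-treated myotubes than in myoblasts, and 0 in place of 2 were higher than in myotubes, since the spread of PC1 differed between the matrices. The mean coefficient with adjacent bins was 0.0687, 0.109 and 0.0968 in myoblasts, myotubes and AraC-treated myotubes for bins 2 to 4 away, by construction a longer distance. No paired analysis was possible because the 2 replicates of each condition were merged into 1 matrix before deposit, and for the same reason no replicate could be left out.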

Other observations

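Because 2 of the 3 leading partners of the Tnnt1-Tnni3 bin were the first bins with data of their chromosomes, the position of its partners was looked at after those values were seen. With the 180 bins of other autosomes in the first 5 Mb with data, at the centromeric ends, its mean coefficient was 0.0454 in myoblasts, 0.0359 in myotubes and 0.0236 after AraC. With the 177 bins of the last 5 Mb it was -0.0184, 0.0009 and -0.0044, and with the remaining 4105 bins 0.0090, 0.0120 and 0.0064. The Tnni2-Tnnt3 bin, 2.94 Mb from the other end of chromosome 7, gave the opposite order. It had -0.0188, -0.0214 and -0.0161 with the first 5 Mb and 0.0394, 0.0463 and 0.0492 with the last 5 Mb. This order was not particular to a bin near that end. With the first 5 Mb, the Tnni1-Tnnt2 bin, 59.5 Mb from its end, gave -0.0154, -0.0337 and -0.0199. With the last 5 Mb it gave 0.0334, 0.0484 and 0.0453. The Tnnc2 bin, 17.1 Mb from its end, had the same order in every condition. The Tnnc1 bin had it in both kinds of myotubes but not in myoblasts. Of the 27 gene-dense bins in the first 5 Mb of all autosomes, that of Tnnt1-Tnni3 included, 20 lay above 0 on PC1 in myoblasts and 19 in each kind of myotubes, with a median scaled PC1 of 1.06, 1.23 and 1.07 in the 3 conditions. The Tnnt1-Tnni3 bin, at 0.58, 0.19 and 0.18, lay below these medians. The part of chromosome position in its values was not tested.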
